A study of Mus musculus with 5 samples.

Results

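Hmgcs1, Sqle, Srebf2, Scap, Insig1, Scarb1 and Abca1 encode enzymes, sensors and transporters that set the cholesterol content of liver cells. Entries for these 7 genes, of 22714 genes listed in all, were collected by symbol from Ago HITS-CLIP tables of mouse liver, which hold the RNA fragments crosslinked to Argonaute (Ago) proteins and the miRNAs whose seed they match. C57BL/6 livers (C57BL/6J in the study's methods) of the embryonic stages e12.5, e15.5 and e18.5 (days after mating), of pups at P7 (days after birth) and of adults of 6 to 8 weeks were exposed 3 times to 254 nm ultraviolet light at 0.2 J/cm2. Ago2 antibodies were used at all stages and an Ago1 antibody was added at P7 and in adults, so the antibody and the postnatal stages cannot be told apart. The labels give 1 sample and 1 table for each stage, so no test was run between stages. Each of the 3 embryonic tables held 2 lists of entries. The study's methods speak of biological replicates, and its supplement lists a further e18.5 library, but no label ties the lists to them. The lists were therefore not counted as replicates, and their values are given beside the results that turn on them, where they often lay far apart.

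Cells make cholesterol from acetyl-CoA through the mevalonate and squalene intermediates, and take it up from circulating lipoproteins. When sterols are scarce, the escort protein SCAP carries the transcription factor SREBP-2, the product of Srebf2, from the endoplasmic reticulum to the Golgi, where it is cleaved and released to switch on the genes of synthesis and uptake. When sterols are plentiful, INSIG1 holds SCAP back. HMG-CoA synthase (Hmgcs1) and squalene epoxidase (Sqle) are enzymes of synthesis, the receptor SR-BI (Scarb1) takes cholesteryl esters from high-density lipoprotein, and ABCA1 moves cholesterol out of cells. An intron of Srebf2 holds the hairpin of miR-33, which is known to repress Abca1.

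The sites on which the results turn are shown as deposited, 5′ to 3′ on the sense strand, and each string matched GRCm38 (mm10). Capitals mark the bases matched to the miRNA seed, which are bases 2 to 7 for a 6mer, with base 8 for a 7mer-m8, with an A opposite base 1 for a 7mer-A1, and with both for an 8mer. Each ends at the base opposite miRNA base 1. The first 6 were each entered in all 5 tables, as were other sites that are not printed. They are followed by the miR-33 pair of Abca1 and the coding sites of Sqle and Scarb1.
Insig1 3′UTR, miR-122-5p 7mer-A1, chr5:28077572-28077593, plus strand: aaattgtgtctctgtCACTCCA
Scap 5′UTR or intron, miR-122-5p 6mer, chr9:110344315-110344336, plus strand: tggtctgctttgtatCACTCCt
Hmgcs1 3′UTR, miR-451a 7mer-m8, chr13:119706515-119706532, plus strand: ggggtatggaAACGGTTg
Srebf2 CDS, miR-139-5p 7mer-A1, chr15:82197633-82197654, plus strand: ggccgtcttctatacCTGTAGA
Abca1 3′UTR, miR-148a-3p 7mer-m8, chr4:53030973-53030994, minus strand: aatggatctattttTGCACTGg
Abca1 3′UTR, miR-144-3p 8mer, chr4:53033820-53033839, minus strand: agaacaaactggATACTGTA
Abca1 3′UTR, miR-33-5p 8mer, chr4:53033801-53033821, minus strand: tactgacactattCAATGCAA
Abca1 3′UTR, miR-33-5p 8mer, chr4:53033786-53033806, minus strand: atgcaatgcacttCAATGCAA
Sqle CDS, miR-144-3p 7mer-A1, chr15:59330837-59330856, plus strand: agtagcggtgctgTACTGTA
Scarb1 CDS, miR-27b-3p 7mer-A1, chr5:125287401-125287421, minus strand: ccccatgaactgttCTGTGAA
Scarb1 CDS, miR-24-3p 7mer-m8, chr5:125287386-125287407, minus strand: ctgtgaagatgcagCTGAGCCt

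The mature miRNAs of these sites, other than miR-122-5p, follow from RefSeq (GRCm38.p6), with seed bases 2 to 8 in capitals, and are shown so that the pairing can be read.
miR-451a: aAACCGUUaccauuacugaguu
miR-139-5p: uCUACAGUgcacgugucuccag
miR-148a-3p: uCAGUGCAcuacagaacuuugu
miR-144-3p: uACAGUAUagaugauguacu
miR-33-5p: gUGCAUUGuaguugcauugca
miR-27b-3p: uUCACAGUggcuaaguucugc
miR-24-3p: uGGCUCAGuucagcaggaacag

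The tables held between 76948 and 208193 clusters (groups of overlapping reads) with 13008703 to 44867326 summed cluster reads, where the reads of a cluster are its highest deposited read number. A gene's level is given here as RPM, its reads per 1000000 of these summed reads. Clusters in the 3′UTR, CDS or 5′UTR, called exonic below, held 23.3%, 29.7%, 30.0%, 20.5% and 13.5% of the reads from e12.5 to adult. The ratio of the adult to the e12.5 table had a median of -1.14 (log2) over 12173 genes, and of -0.11 over 8764 genes when exonic reads alone were counted and scaled to exonic reads. Of the 6 erythroid markers, all 6 were listed in each embryonic table and at P7 and 5 in the adult table, and their summed level was 65730, 88630, 95779, 34443 and 1629 RPM from e12.5 to adult. Hba-a1 and Hba-a2, near-identical copies that may share reads, were listed with nearly the same reads (1336862 and 1336847 at e12.5, and equal numbers in the other tables), and without Hba-a2, a choice made after seeing the data, the sums were 35934, 51516, 50831, 18201 and 880.2 RPM. Of the 6 hepatocyte markers 5 were listed in every table, with a summed level that went from 585 at e12.5 to 7754 in adults. In bulk tissue, fewer cells of a type and less RNA per cell cannot be told apart, and the part of this change in cell makeup in the values below was not tested.

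All 7 genes were listed in all 5 tables, and all 7 had an exonic entry in each, while 40.0% of all listed genes and 45.5% of genes with any exonic entry did so. The 7 genes together had 189, 92, 100, 170 and 170 clusters in the tables from e12.5 to adult. These tables held 208193, 81121, 76948, 124781 and 81194 clusters in all, so the counts follow the size of the table in part. Of the clusters of the 7 genes, the regions held the following numbers. The CDS held 75, 49, 44, 90 and 93, the 3′UTR held 56, 28, 37, 51 and 45, and the 5′UTR held 8, 6, 8, 7 and 13. Exonic clusters made up 73.5% at e12.5 and between 87.1% and 90.2% at the other stages. The genes used these regions differently: Insig1 clusters lay mostly in the 3′UTR (15 of 24 in adults), those of Hmgcs1 mostly in the CDS (19 of 26 in adults), as did those of Scap in adults (12 of 16), and Sqle had 6 of its 11 adult clusters in the 5′UTR. Scarb1 at e12.5 stood apart, with 25 of 35 clusters in introns, against 0 of 4 at e15.5 and 5 of 18 in adults. The number of different miRNAs with an entry in a gene ran from 14 for Scarb1 at e15.5 to 238 for Abca1 at P7.

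**Figure D1:**
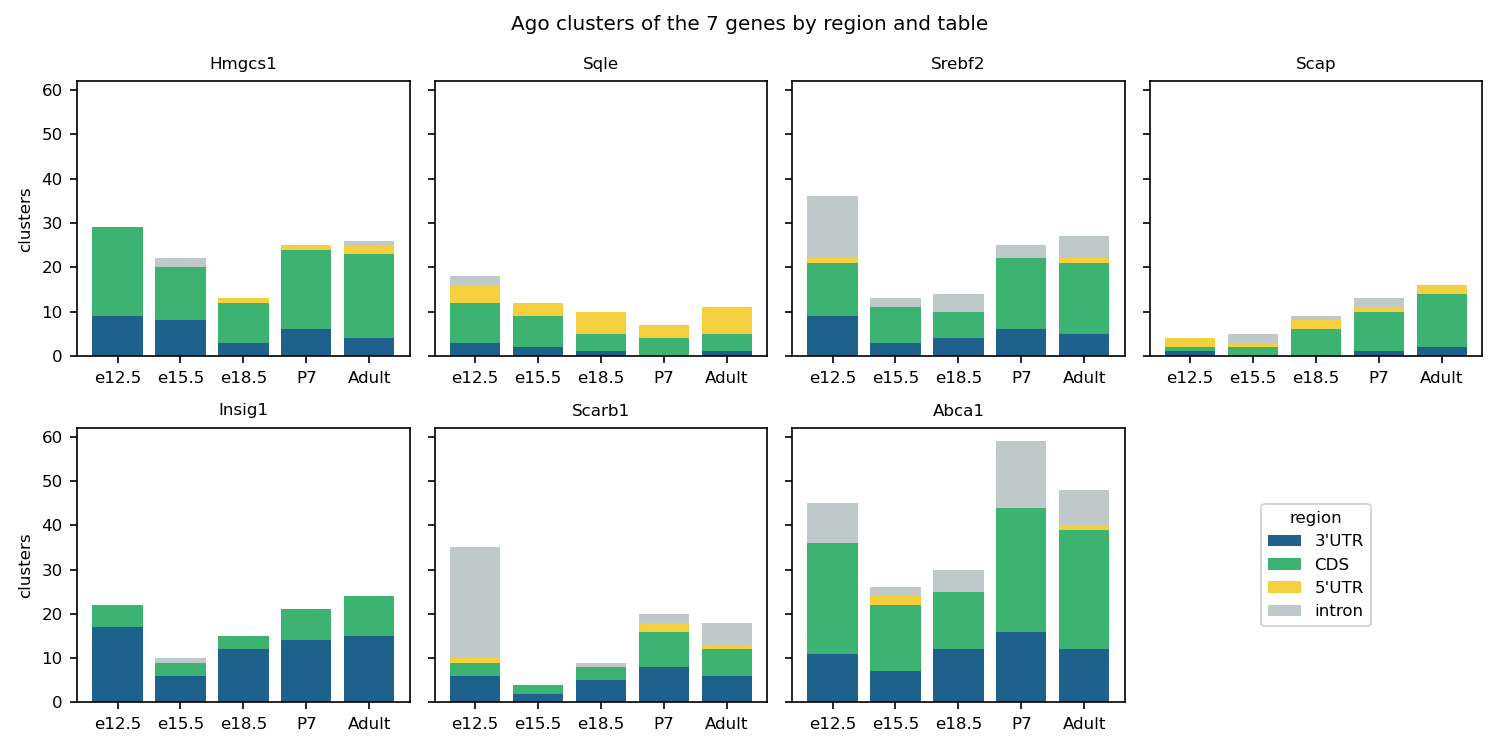
Number of Ago clusters (y axis) of each gene in each table (x axis), stacked by region, with a cluster in several regions counted once in the order 3′UTR, CDS, 5′UTR, intron. Insig1 is mostly 3′UTR, Hmgcs1 mostly CDS, and 25 of the 35 Scarb1 clusters at e12.5 are intronic.

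When clusters of different tables that overlapped were taken as 1 position, the 7 genes had 412 positions, of which 266 were listed in a single table and 18 in all 5. Of the 18, 17 were exonic, with 6 in Hmgcs1, 1 in Srebf2 and 2 in each of the other genes. The remaining position was the miR-33 hairpin in the Srebf2 intron.

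Between e12.5 and adult liver, 2 of the 7 genes, Insig1 and Scap, were at least 2-fold higher in the adult table, against 18.48% of all genes listed in both with at least 20 reads in either. Sqle was at least 2-fold lower, against 52.8% of all genes. The log2 ratios were 2.59 for Insig1, 2.30 for Scap, 0.28 for Scarb1, 0.02 for Abca1, -0.44 for Srebf2, -0.50 for Hmgcs1 and -1.05 for Sqle, beside the median of -1.14 over all genes. Counting exonic entries on the same scale gave 3 genes at least 2-fold higher (21.2% of all genes), with Scarb1 at 1.82, and 0 at least 2-fold lower (48.0%). With exonic entries scaled to exonic reads, 4 genes were at least 2-fold higher (31.0% of all genes), which were Insig1 (3.38), Scap (3.09), Scarb1 (2.61) and Srebf2 (1.01), and 0 were 2-fold lower (33.2% of all genes), with Sqle at -0.09. The value of Sqle therefore rested on the scale. With reads of all regions on the exonic scale, 3 genes were higher (27.5% of all genes) and 0 lower (37.2%). From e15.5 to e18.5, reads of all regions were at least 2-fold higher in 4 genes (29.3% of all genes), with Srebf2 at 1.48, and lower in 0 (28.3%). The exonic reads were higher in 3, Scap (3.33), Insig1 (2.58) and Scarb1 (1.89), beside 30.3% of all genes, and lower in 0, beside 29.6%. These counts describe the 7 genes and were not tested against other genes.

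The lists were compared by exonic reads in RPM. In Insig1, Scap and Scarb1, both e18.5 lists, P7 and adult lay above every list of e12.5 and e15.5. This held for 4.51% of 12947 genes. The opposite pattern was seen in 0 of the 7, against 5.62% of genes. P7 and adult both lay above all 6 embryonic lists in 1, Scarb1 (7.54% of genes), and below them in 1, Sqle (6.46%). The Sqle pattern rested on the scale, as given below. The values of Hmgcs1, Srebf2 and Abca1 overlapped between the early and the late stages. With reads of all regions the Scarb1 pattern did not hold. It had 40.1 RPM at e12.5 and 40.2 at e18.5, and its log2 ratio of adult to the first e12.5 list was -0.65.

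**Figure D2:**
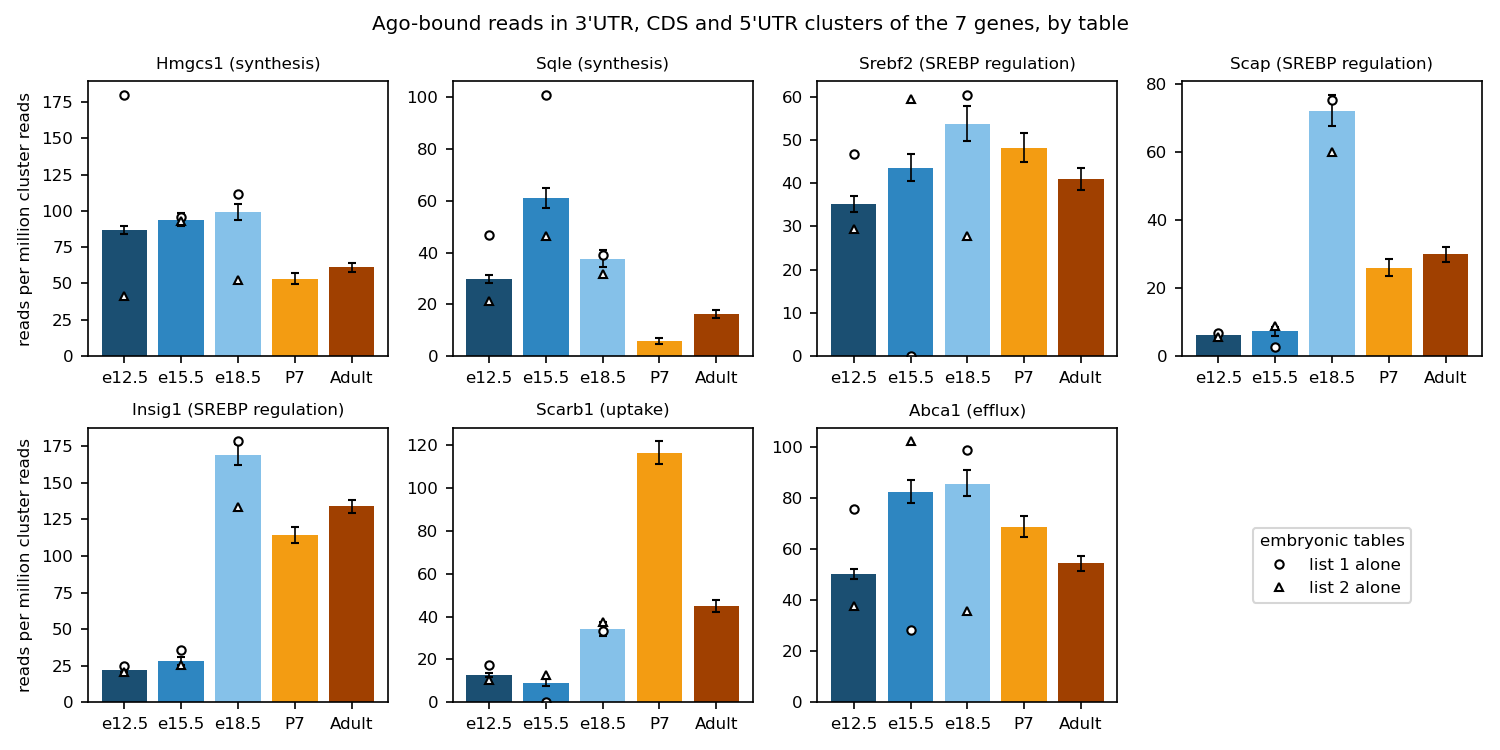
Level in RPM in exonic clusters (y axis, from 0) for each gene and table (x axis). Bars are tables with exact 95% Poisson intervals that cover counting error only, and open circles and triangles are the first and second list of an embryonic table alone (0 where the gene was not listed). Insig1, Scap and Scarb1 are higher at e18.5, P7 and adult than in any earlier list. On this scale Sqle is lower at P7 and adult than in any embryonic list. Scaled to exonic reads, its adult table (120) was close to those of e12.5 (128) and e18.5 (125).

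Insig1, the sterol-dependent anchor of SCAP, had an exonic level of 22.3, 28.3, 169, 114 and 134 RPM from e12.5 to adult, with a 95% interval of 162 to 176 at e18.5. The 4 lists of e12.5 and e15.5 lay between 21.0 and 36.1 and the 2 lists of e18.5 at 178 and 134. The position at chr5:28077558-28077622 in the 3′UTR, which holds the miR-122-5p site printed above, had 168, 54, 1387, 473 and 471 reads from e12.5 to adult, or 3.74, 3.27, 107, 28.7 and 18.9 RPM. It was highest at e18.5, where the first list gave 126 and the second 33.0 RPM, so that the second list alone was close to P7. The miR-122-5p site was entered in all 5 tables, and miR-10a-5p, miR-24-3p and miR-542-3p were among those also entered there in all 5. Its deposited conservation score, which runs from 0 to 1, was 0.007.

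The other leading Insig1 position, chr5:28076907-28076958, lay nearer the stop codon and had 176, 148, 799 and 1711 reads in the e12.5, e18.5, P7 and adult tables, with no cluster listed at e15.5. Its level was 48.4 RPM at P7 and 68.8 in adults, and it held 51.4% of the adult exonic reads of the gene. At e18.5 it came from the second list alone, at 54.8 RPM, which was close to P7. No miRNA on the list of 22 miRNAs taken from work on cholesterol genes had an entry in this position. miR-322-3p had a 6mer there in 4 tables and miR-151-3p a 6mer at P7 and in adults. In the joined e18.5 table and its first list the first-named position had the more reads of the pair, while in the second e18.5 list, at P7 and in adults it was this one. A further 3′UTR position of all 5 tables, chr5:28077824-28077923, had 45, 6, 291, 154 and 55 reads, and its e18.5 lists gave 25.8 and 9.26 RPM, against 9.33 at P7. It held a 6mer shared by miR-146a-5p and miR-146b-5p in every table, and a miR-144-3p 7mer-m8 at P7. The neighbouring chr5:28077932-28077983 had 13.1 RPM at e18.5, all from the first list. At e15.5 the 3′UTR position with the most reads was chr5:28078192-28078213, at 11.0 RPM, with 33.4 in the first list and 2.81 in the second.

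Scap, the SREBP escort, had an exonic level of 6.08, 7.20, 72.3, 25.9 and 29.9 RPM over the same stages. Lists of the earlier stages lay between 2.71 and 8.85, and those of e18.5 at 75.5 and 60.0. The position at chr9:110344299-110344346, annotated as 5′UTR in some transcripts and intron in others, had 27, 17, 544, 211 and 180 reads, and carried the miR-122-5p 6mer printed above in all 5 tables. At e18.5 the 2 lists gave 41.8 and 41.9 RPM, against 12.8 at P7 and 7.23 in adults. The other position of all 5 tables, chr9:110384776-110384818 at the end of the CDS, had 202, 41, 344, 91 and 46 reads and a miR-145a-5p 7mer-m8 and a miR-455-3p 8mer in every table, with a conservation score of 1.0 for both. Of the 344 reads at e18.5, 334 came from the first list, at 32.4 RPM against 3.70 in the second, and the miR-145a-5p site had 10 reads there. The position had 1.85 RPM in adults, the lowest of the 5 tables but above the 1.58 of the first e15.5 list, while the number of Scap clusters in the CDS was 12 there against 1 at e12.5.

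Srebf2, the gene of SREBP-2, had 210, 237, 659, 476 and 155 RPM over all regions, but most of these came from the miR-33 hairpin. The intronic position chr15:82198126-82198185, inside Mir33 at chr15:82198122-82198190, had 7132, 3196, 7790, 7035 and 2758 reads. The number carried by miR-33-5p in the entry names, taken as its read count, was 7168, 3174, 7768, 7083 and 2745 at the same stages, so the 2 measures differed little at any stage. The exonic level of Srebf2 without it was 35.1, 43.5, 53.7, 48.2 and 40.9 RPM, and its embryonic lists ran from 0 to 60.5, which covers every other value. In the CDS, the position chr15:82197619-82197659 was listed in all 5 tables with 12.1, 23.1, 16.8, 6.91 and 1.69 RPM, and carried a miR-139-5p 7mer-A1 throughout. The e15.5 value came from the second list alone, at 31.6 RPM with no cluster in the first, and the lists of e12.5 and e18.5 lay between 9.55 and 17.5. The miR-139-5p share of the miRNA number was 0.0358% at e15.5 and 0.136% in adults. The other leading exonic positions were listed in 2 tables each, chr15:82178714-82178764 in the CDS with 59 reads at e15.5 and 248 in adults, and chr15:82205136-82205200 in the 3′UTR with 48 at e12.5 and 176 at e18.5. The 3′UTR of Srebf2 had a miR-122-5p 6mer with 32 reads at P7 and 12 in adults, and another with 7 reads in adults.

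Clusters in the 3′UTRs of the 7 genes with a miR-122-5p entry were therefore few, namely 1 of 56, 1 of 28, 1 of 37, 2 of 51 and 3 of 45 from e12.5 to adult. Over all 3′UTR clusters the share was 1.01%, 1.30%, 2.17%, 2.62% and 3.66%. The adult share of the 7 genes, 6.67%, had an exact 95% interval from 1.40% to 18.3%, which covers that of all clusters. The 3 adult clusters lay in Insig1 and Srebf2, so they are not independent, and the interval covers counting error only. All these counts take miR-122-5p entries as deposited. A cluster without one is not shown to lack a seed match, as described for Scarb1 below. The miR-122-5p share of the miRNA number went through 1.44%, 4.33%, 9.20%, 12.3% and 11.2%.

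**Figure D3:**
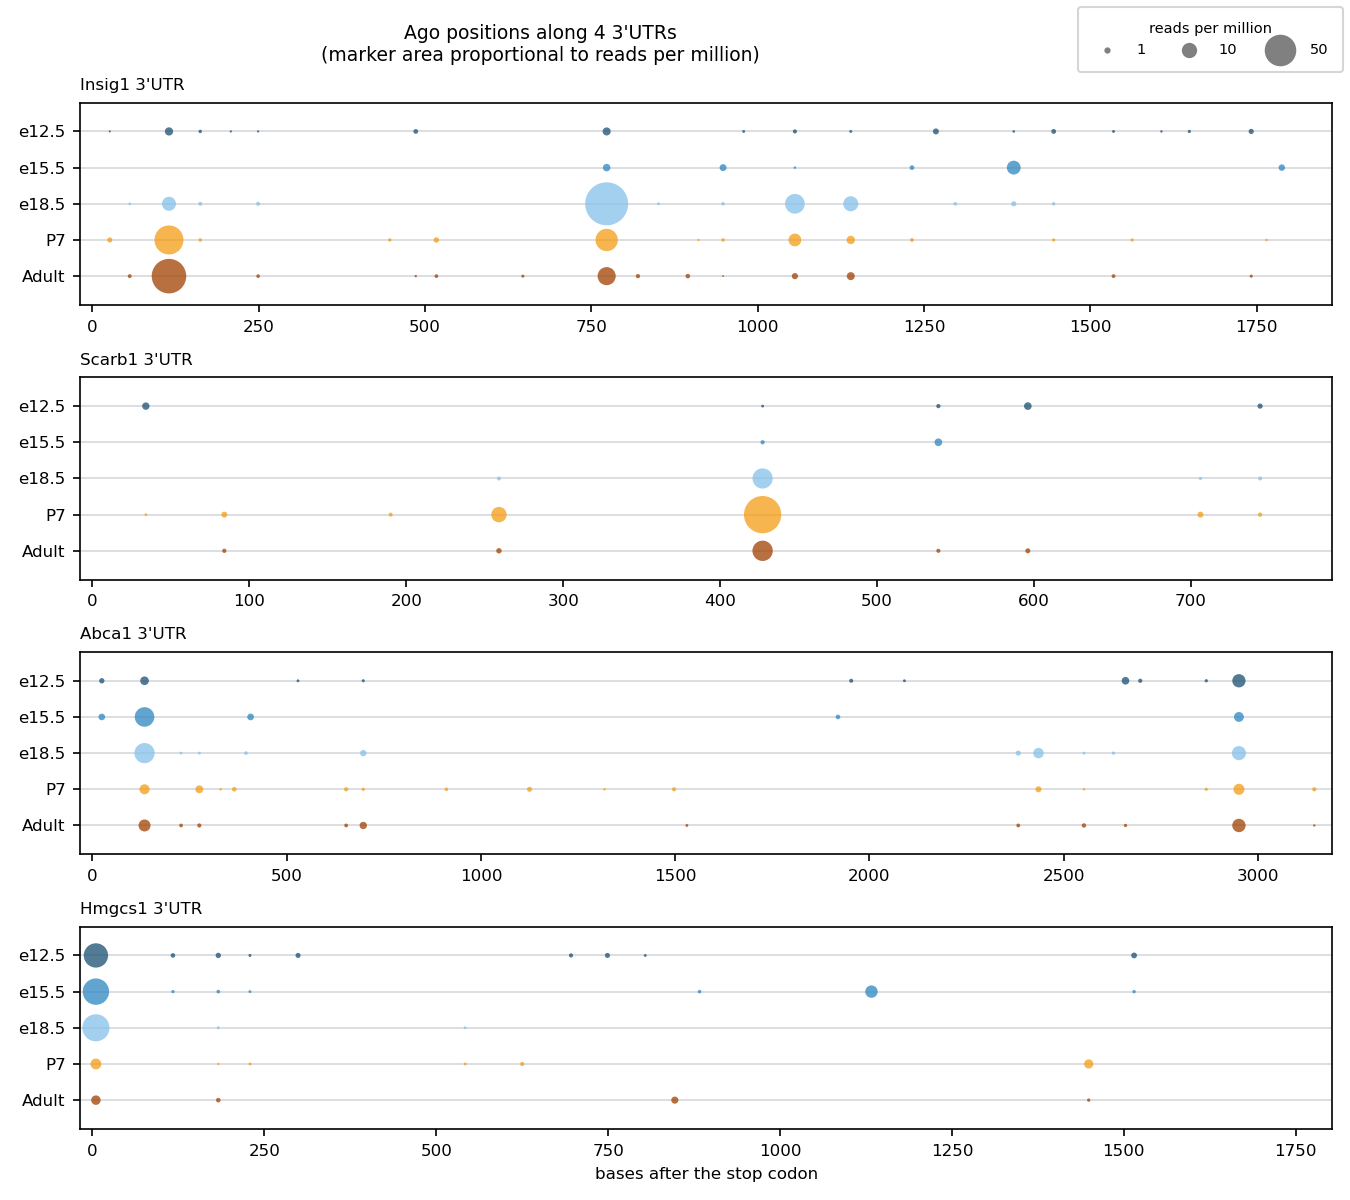
Positions along the 3′UTRs of Insig1, Scarb1, Abca1 and Hmgcs1 (x axis, bases after the stop codon) in each table (rows), with marker area proportional to RPM. The highest Insig1 position is that of the miR-122-5p site in the joined e18.5 table and the one at chr5:28076907 at P7 and in adults (in the second e18.5 list, at 33.0 and 54.8 RPM, it is also the latter). Scarb1 has a single main position at e18.5, P7 and adult, which does not lead at e12.5 and e15.5. Abca1 has a main position at each end of its 3′UTR in all 5 tables.

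Hmgcs1, which makes HMG-CoA, had 87.1, 93.9, 99.3, 53.3 and 61.0 exonic RPM from e12.5 to adult. Its embryonic lists ran from 41.2 to 180 and covered the postnatal values. Its leading position, chr13:119706397-119706563, spans the end of the CDS and the start of the 3′UTR and had 1529, 662, 552, 111 and 129 reads, or 34.1, 40.1, 42.4, 6.73 and 5.18 RPM. The 3 embryonic tables were the higher ones, but the second list of e12.5, at 7.45 against 88.1 in the first, was close to P7. The miR-451a 7mer-m8 printed above was entered at this position in all 5 tables, and miR-148a-3p had a 7mer-A1 in its CDS part in the 4 tables before the adult. miR-451a, a miRNA of erythroid cells, made up 6.98%, 3.53%, 2.66%, 0.299% and 0.722% of the miRNA number. The CDS position chr13:119701129-119701237 had 4.57, 25.4, 4.30 and 17.2 RPM in the e12.5, e18.5, P7 and adult tables and was not listed at e15.5. The e18.5 value came from the first list alone, at 32.0 RPM, and the lists of e12.5 gave 9.32 and 2.23. The position held an 8mer of the let-7 family (let-7a-5p, let-7b-5p and others) with a conservation score of 1.0 and a miR-185-5p 7mer-A1 in each of those 4 tables. The other Hmgcs1 positions of all 5 tables reached at most 11.8 RPM and were chr13:119699748-119699795, chr13:119699863-119699909, chr13:119700569-119700590 and chr13:119704434-119704519 in the CDS and chr13:119706633-119706684 in the 3′UTR. The first of them had 229, 195, 78, 62 and 58 reads and a miR-369-5p 8mer in every table, but its e15.5 reads came from the second list alone. A miR-345-3p 7mer-A1 in the next, a pair of 7mer-m8 sites of miR-337-3p and miR-674-3p in the one after, and a miR-451a 6mer in the last of the CDS were also entered in every table. No miRNA had an entry in more than 3 tables at the 3′UTR position, which had 5 to 75 reads a table. Hmgcs1 had 7 positions with a site of at least 7 matched bases for a listed miRNA.

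Sqle, the squalene epoxidase, had 29.7, 61.0, 37.7, 5.82 and 16.2 exonic RPM. The e15.5 value rested on the CDS position chr15:59326126-59326134, which held 64.7% of the exonic reads there and differed between the lists, with 101 and 16.9 RPM. It carried a miR-132-3p 7mer-A1 and was not listed in adults. The 5′UTR position chr15:59315120-59315206 was listed in all 5 tables, with 5.95, 2.66, 7.76, 0.67 and 0.72 RPM. Both postnatal values lay below those of the joined embryonic tables, but the first e15.5 list had no cluster there, and the other embryonic lists ran from 2.59 to 11.5. Another 5′UTR position of all 5 tables, chr15:59315392-59315437, had 27, 52, 21, 8 and 5 reads and a miR-425-3p 6mer throughout, and chr15:59315335-59315360 had 127 reads at e18.5, 21 in adults and no cluster elsewhere. When exonic reads alone were the scale, Sqle was at 128, 206, 125, 28.4 and 120 RPM, and only P7 stood clearly below. The miR-144-3p site in the Sqle CDS, printed above, had 51, 90, 17 and 70 reads from e15.5 to adult, and a miR-181a-5p 8mer in the CDS had 238 and 43 reads in the first 2 tables and no entry later.

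Scarb1, the receptor for high-density lipoprotein, had 12.7, 9.20, 34.2, 116 and 44.9 exonic RPM. P7 was the highest table (95% interval 111 to 122), at 116 against 44.9 in adults. The 3′UTR position chr5:125277372-125277512 had 21, 17, 306, 1320 and 593 reads, or 0.47, 1.03, 23.5, 80.0 and 23.8 RPM. Its 2 lists at e18.5 were close, at 24.2 and 21.1 RPM. Over the tables it held entries of 42 miRNAs, among them a miR-542-3p 7mer-m8 in all 5 tables, a miR-337-3p 7mer-m8 in 3, and a miR-96-5p 7mer-m8 at e18.5 and P7. No miR-122-5p entry was listed in it. It also held a miR-8091 7mer-m8 at e12.5, e15.5 and e18.5 and, on the same bases, a miR-3060-5p 6mer at P7. In Insig1 and Scap, sites of both lay on the bases of the miR-122-5p site. The missing entry therefore does not show that a miR-122-5p seed match is absent. A neighbouring 3′UTR position, chr5:125277558-125277662, had 12, 225 and 42 reads at e18.5, P7 and adult and was not listed earlier. The other position of all 5 tables, chr5:125340786-125341003 at the start of the gene, had 87, 17, 95, 103 and 152 reads, with those of e18.5 from the first list alone and those of e12.5 and e15.5 from the second. It held sites of miR-16-5p, miR-15a-5p and other miRNAs of that seed in 4 tables and a miR-24-3p 7mer-m8 in adults. In the CDS, the overlapping miR-27b-3p and miR-24-3p sites printed above were entered with 6, 62, 66 and 125 reads for miR-27b-3p in every table but e18.5, with a conservation score of 0.987. miR-27b-3p made up 0.288% of the miRNA number at e12.5 and 2.14% in adults.

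Abca1, the cholesterol exporter, had 50.3, 82.6, 85.8, 68.9 and 54.6 exonic RPM, and its embryonic lists ran from 28.2 to 102, which covers the values of P7 and adult. It had the most positions of the 7 genes, 140, of which 105 were listed in a single table. Its 2 positions of all 5 tables lay at either end of the 3′UTR. The distal position, chr4:53030951-53031039, had 456, 93, 149, 116 and 257 reads and held sites of miR-148a-3p, miR-130b-3p, miR-301b-3p and miR-145a-5p in all 5 tables and a miR-106b-5p 8mer at e12.5, P7 and adult. The proximal position, chr4:53033745-53033879, had 194, 364, 306, 96 and 206 reads. There the miR-144-3p 8mer was entered in all 5 tables and the miR-223-3p 7mer-A1 in the 3 embryonic tables.

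The pair of miR-33-5p 8mers of Abca1 lay side by side in the same proximal position, each with a conservation score of 1.0. The site next to the miR-144-3p site was entered at e12.5 with 155 reads and at e18.5 with 259, and the other from e15.5 to adult with 23, 20, 29 and 33 reads. At least 1 of the pair was thus entered at every stage. miR-33-5p made up 0.0281%, 0.0314%, 0.0998%, 0.0588% and 0.0120% of the miRNA number, while miR-144-3p made up 21.7%, 10.2%, 9.58%, 1.97% and 1.54%. The proximal position had 4.32, 22.0, 23.5, 5.82 and 8.28 RPM and the distal 10.2, 5.63, 11.5, 7.03 and 10.3. The lists differed by as much as the stages did, so no course over the stages is read from them. In the distal position the e12.5 lists gave 19.9 and 5.39 RPM and the e18.5 lists 13.9 and 2.22, while the first e15.5 list had no cluster and the second 7.69. The proximal position had 1.15 and 5.89 RPM in the e12.5 lists, 28.2 and 19.8 in those of e15.5, and 27.7 and 7.41 in those of e18.5.

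**Figure D4:**
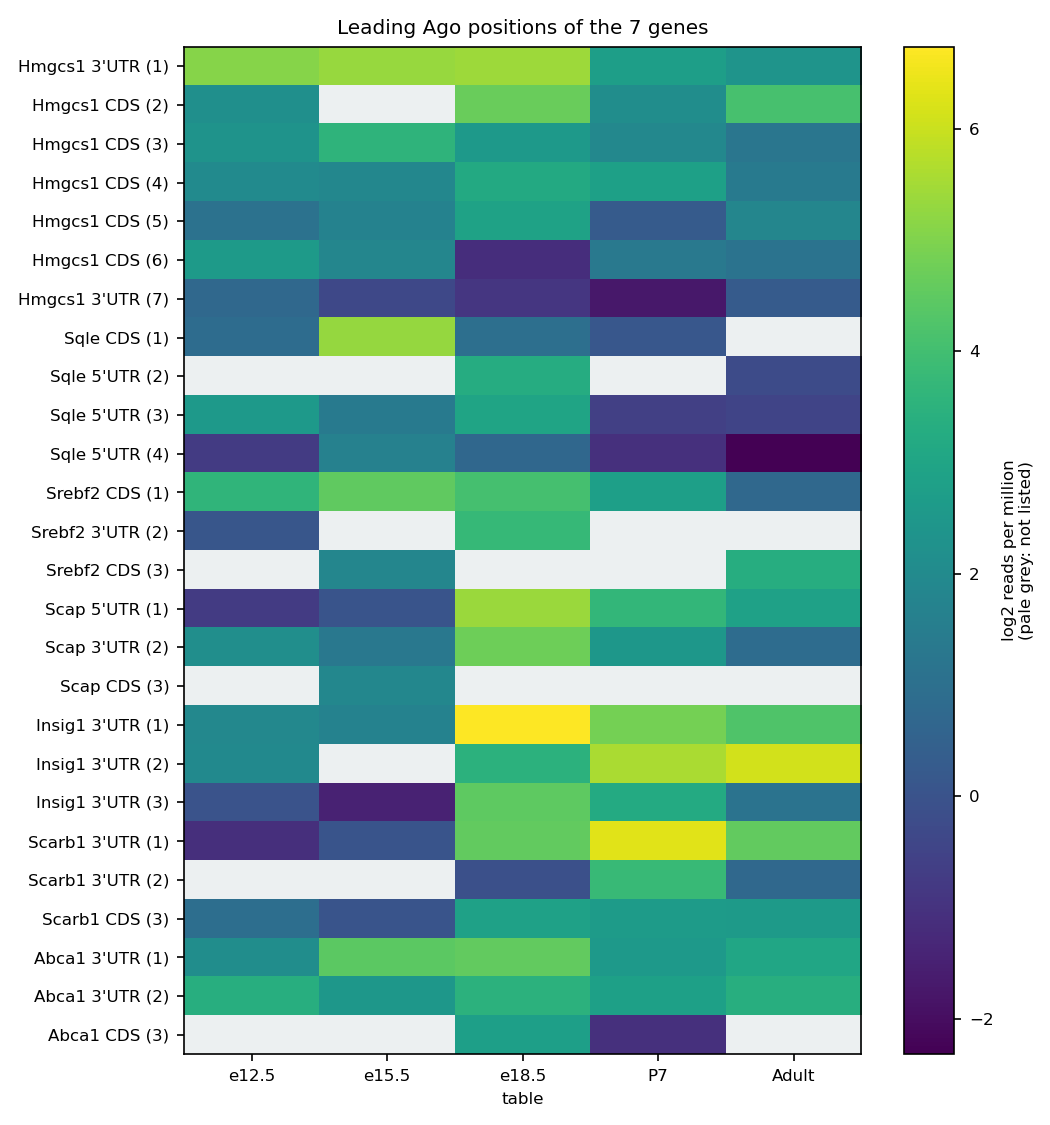
Log2 RPM (colour) of the leading exonic positions of the 7 genes (rows, labelled by 1 region and numbered within each gene by their highest level) in each table (columns), with pale grey where no cluster was listed. The positions numbered 1 of Insig1 and Scap are brightest at e18.5 and that of Scarb1 at P7, and the Hmgcs1 position numbered 1 is brighter in the 3 embryonic tables.

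Of the 22 miRNAs on the list for cholesterol genes, 20 had an exonic entry in at least 1 of the 7 genes and 18 had a site of at least 7 matched bases, at 52 sites in all. Of all 995 miRNAs named in the tables, 77.6% had such an entry and 56.1% such a site, against 90.9% and 81.8% of the 22, which were not tested against other miRNAs. miR-145a-5p had such sites in 5 genes, miR-185-5p in 4, and miR-144-3p, miR-148a-3p, miR-128-3p, miR-223-3p, miR-27a-3p and miR-27b-3p in 3 each. miR-33-5p had them in Abca1 and, with 81 reads at e12.5, in the Hmgcs1 CDS. Several of these miRNAs share a seed, as do miR-27a-3p and miR-27b-3p, or miR-130b-3p and miR-301b-3p, so their entries rest on the same bases.

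Among the other 49 genes of cholesterol metabolism on the list, 39 were listed in all 5 tables, where 40.0% of all genes were, and 1, Npc1l1, in none. From e12.5 to adult, 15 of the 45 that could be compared were at least 2-fold higher and 10 at least 2-fold lower, with a median log2 ratio of 0.06. Of all genes compared, 18.48% were higher and 52.8% lower, with a median of -1.14. With reads of all regions on the exonic scale, 22 were higher and 9 lower, beside 27.5% and 37.2% of all genes. In synthesis, Lbr, a sterol reductase of the nuclear envelope, went from 112 to 6.95 RPM (-4.01). In SREBP regulation, Srebf1, the gene of SREBP-1, had 28.7 and 66.0 RPM (1.20).

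In uptake, Lrp1, a lipoprotein receptor, went from 21.8 to 170.1 RPM (2.96), and Mylip, the ubiquitin ligase of the LDL receptor, from 30.0 to 16.4 (-0.88). In efflux, Abcg1 had 8.60 and 8.44 (-0.03), and Abcg5, a sterol transporter of the bile canaliculus, was listed only at P7 (17.8) and in adults (17.4). In trafficking, Npc1, which exports cholesterol from lysosomes, went from 15.3 to 47.8 (1.65) and Stard4, a cytosolic sterol carrier, from 46.2 to 11.7 (-1.98). Cyp8b1, the sterol 12-hydroxylase of bile acid synthesis, had 18 reads at e12.5 and 6897 in adults (9.43), and Cyp27a1, the sterol 27-hydroxylase, had 188 and 1232 (3.56). The exonic scale raised each of these ratios by the same amount, which gave -3.22 for Lbr, -1.19 for Stard4, -0.08 for Mylip and 0.76 for Abcg1. The genes above 1 on the first scale went to 1.99 for Srebf1, 2.44 for Npc1, 3.75 for Lrp1, 4.35 for Cyp27a1 and 10.2 for Cyp8b1.

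**Figure D5:**
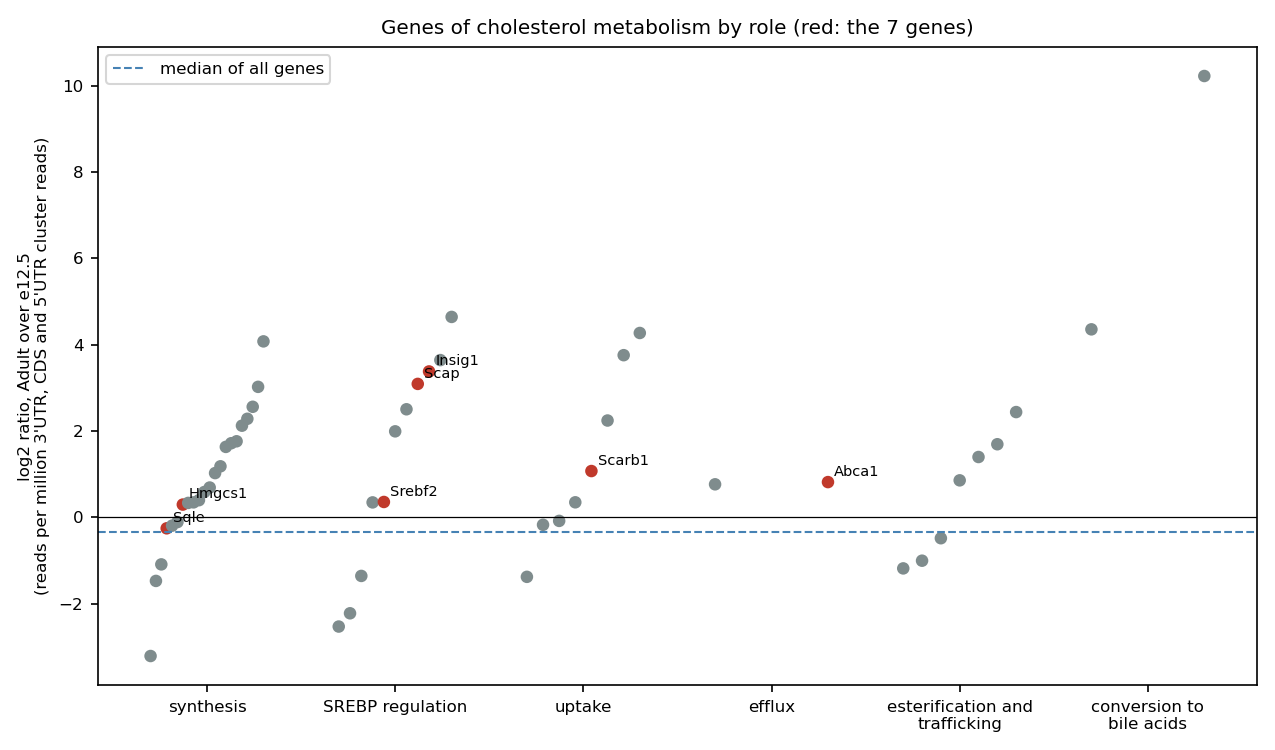
Log2 ratio of the adult to the e12.5 table (y axis), with reads scaled to exonic cluster reads, for the genes of cholesterol metabolism by role (x axis). The 7 genes are red and named, other genes are grey, and the dashed line is the median of all genes at -0.35. Insig1 (3.38) and Scap (3.09) are the highest of the 7, and Sqle (-0.26) is the lowest.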

How the data were processed

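The 5 interaction tables deposited by the authors were made by preprocessing reads with the FASTX-Toolkit, mapping with Bowtie to mm10 and to miRBase precursors (the submitters' processing notes also name mm9), joining overlapping reads into clusters, annotating them with UCSC refGene and Ensembl and scanning for seed matches. Tool versions are not given in the sources used here. The deposited read number is a signal, not scaled to depth, of which the lowest is 5, and its header says target for the e12.5 table and peak for the others, so whether the measure is the same is not known. Conservation and free energy are deposited as a score. The tables list only clusters with a seed match, so a gene that is not listed is not shown to be unbound, and their sums are not library depth. The 5′ linker carried barcode bases, and whether reads were collapsed on them is not given in the sources used here, so intervals cover counting error only.

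Cluster reads were the highest read number over the sites of a cluster. Lists of the embryonic tables were added for reads and joined on overlap for cluster counts. The number in each entry name was read as the reads of that miRNA, the highest was kept per miRNA and list, and shares are of the sum over miRNAs. Genes were compared when listed in both tables with at least 20 reads in either, at 2-fold, with no test. Distances from stop codons used GENCODE M21. Python 3.11.15, pandas 2.3.3, numpy 2.4.6, scipy 1.17.1 and matplotlib 3.10.9 were used, and the fold comparison was tested on simulated data. The text names the 7 genes, the 2 other pathway genes with the highest summed level in each role (by summed RPM; some that the rule names are not reported here), the 2 genes of nearest profile, and, per gene, up to 3 exonic positions with the highest level, positions of all 5 tables and sites of listed miRNAs (of these sites, examples are given; 2 positions that the rule names, with reads in at most 2 tables, are left out). Other miRNAs named at these positions and the sequences printed were chosen after their values were seen. The members and lists were chosen with earlier results of these data known. The alternatives were a minimum of 10 reads, sites of at least 7 matched bases, each list alone, entries naming 1 gene, exonic entries, other scales and 1.5-fold.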

Additional observations from a re-analysis of the deposited data

How the results depend on the processing

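No paired analysis was possible because the labels give 1 sample per stage. The ratios of Insig1 and Scap stayed at least 2-fold higher in adults under every alternative, and Scarb1 joined them with the second lists, exonic entries or the exonic scale, 3 genes each. Genes at least 2-fold lower numbered 0 with sites of at least 7 matched bases, with the second lists, with exonic entries, with library totals as scale and with the exonic scale, and 2 with the first lists. With the first lists alone the 7 genes had 62, 11 and 55 clusters in the 3 embryonic tables, and 23 pathway genes, in place of 46 of 56, were listed in all 5 tables. At e18.5 the second list gave 64 clusters and a minimum of 10 reads 66. 3′UTR clusters with a miR-122-5p site numbered 1 at P7 and 1 in adults when at least 7 matched bases were asked. Leaving out the miR-33 hairpin, chosen after seeing the data, moved the Srebf2 ratio from -0.44 to -0.21. The e18.5 lists weigh unequally in the sums, 10308704 against 2699999 reads. With single samples, differences between stages and between samples cannot be told apart. The cause of these moves was not tested.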

Other observations

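The genes whose profile over the 5 tables lay nearest to a member were found among 6806 genes with at least 20 reads in each table, by the distance between log2 levels centred on their mean. For Insig1 these were Slc27a2, a fatty acid transporter, at 0.32 and Sec63, a translocation factor of the endoplasmic reticulum, at 0.33, where the median distance of all genes was 3.63. For Abca1 they were Pdia6 (0.18) and Edem1 (0.26), for Hmgcs1 Hsp90b1 (0.22) and Sdhc (0.22), for Scap Kcnh8 (0.27) and Rab3a (0.31), for Scarb1 Zfp949 (0.36) and Notch1 (0.50), and for Sqle Prpsap1 (0.43) and Cox5b (0.61). The Srebf2 profile, nearest to Stk40 (0.15) and Gin1 (0.17), was that of the miR-33 hairpin. Profiles count reads of all regions, and 572 of the 1797 Scarb1 reads at e12.5 and 119 of the 174 Scap reads at e15.5 were exonic, so these profiles also rest on intronic reads. With 5 points a profile, such distances describe the tables.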
